A study of Mus musculus with 3 samples.

Results

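The 10 genes described here are Fos, Fosb, Jun, Junb, Jund, Atf3, Egr1, Ier2, Dusp1 and Klf4. They were taken by name as immediate early genes from the 32285 genes of the deposited count tables, with no measured value used in the choice, and all 10 had counts in every library. They were measured by single-cell RNA sequencing of live CD45+ cells (leukocytes) sorted from enzymatically digested whole mouse aortas, the adventitia included. All mice were labelled ApoE-/- on the C57BL/6J strain, a genotype that lacks apolipoprotein E and is prone to atherosclerosis. There was 1 library per group: a control, a group labelled HHcy whose drinking water held homocysteine at 1.8 g/L for 4 weeks, and a group labelled WD that received a western diet for 4 weeks. The number, age and sex of the mice are not given in the sources used here. No test between the groups was possible with a single library in each, and every interval below is a 95% interval that covers counting error only. Throughout, 3 values given side by side belong to the control library, the HHcy-labelled library and the WD library, in that order.

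Immediate early genes are switched on within minutes of a stimulus from factors already present in the cell, without new protein synthesis. The proteins of the Fos and Jun families pair with each other to form AP-1, a transcription factor that binds DNA through a basic leucine zipper, and Atf3 can pair with Jun proteins. In leukocytes these genes respond to antigen receptor, cytokine and stress signals, and they are also known to respond to warm enzymatic digestion of tissue. According to the labels all 3 libraries went through the same digestion and sort, so induction in the aorta and induction during handling cannot be told apart here.

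Levels are given as CPM, the UMIs (counted molecules) of a gene per 1000000 UMIs summed over the cells of a class. Each molecule is counted once near its 3′ end, so these levels are not scaled by gene length. The count tables held 66789257, 105180370 and 93164076 UMIs in 7512, 9753 and 8557 called barcodes. After filters 5489, 6594 and 5545 cells were used, with medians of 7662, 6853.5 and 8336 UMIs. Barcode sequences shared between pairs of libraries numbered 20 to 24, of which 9 to 14 were among the cells used. Ptprc, which encodes CD45, had a UMI in 93.5%, 93.6% and 90.9% of cells. Apoe stood at 16.3, 374 and 19.3 CPM over all called barcodes, so the second library goes against the genotype on its label and is named by its label alone, as the HHcy-labelled library.

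Cell classes were named from fixed marker genes, and the clustering left the 10 genes out. The largest classes were B-like (2201, 3641 and 1234 cells), macrophage/monocyte-like (2011, 1266 and 2753), conventional dendritic cell-like, written cDC-like (466, 273 and 442), neutrophil-like (210, 441 and 291) and T-like (139, 210 and 139). The 10 B markers summed to 6497, 7245 and 7227 CPM in B-like cells and to at most 232 CPM in T-like cells. The 12 T markers summed to between 4475 and 5426 CPM in T-like cells and to at most 43.8 CPM in B-like, macrophage/monocyte-like and cDC-like cells. The 18 macrophage/monocyte markers summed to 1210, 1035 and 1640 CPM in T-like cells, where their part in the results was not tested. Unnamed clusters held 5.76%, 7.48% and 6.49% of cells.

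The upstream windows of 4 of the genes are shown because they hold the half-site of the cyclic AMP response element, the DNA site of the CREB family of signal-responsive factors. Of the 4, only Dusp1 holds the full element. The 4 were picked for printing after the matches were seen. Of the 10 genes, 8 were found in RefSeq's promoter table (build GRCm38.p6), and Egr1 and Ier2 were not. Capitals mark the half-site TGACG, read as CGTCA on the other strand, and in Dusp1 also the full palindrome TGACGTCA.
Fos: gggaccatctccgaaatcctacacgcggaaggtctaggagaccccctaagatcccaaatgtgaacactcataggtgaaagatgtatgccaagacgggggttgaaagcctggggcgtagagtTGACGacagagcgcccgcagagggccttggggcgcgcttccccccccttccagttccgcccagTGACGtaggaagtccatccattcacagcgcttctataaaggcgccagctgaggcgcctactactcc
Junb: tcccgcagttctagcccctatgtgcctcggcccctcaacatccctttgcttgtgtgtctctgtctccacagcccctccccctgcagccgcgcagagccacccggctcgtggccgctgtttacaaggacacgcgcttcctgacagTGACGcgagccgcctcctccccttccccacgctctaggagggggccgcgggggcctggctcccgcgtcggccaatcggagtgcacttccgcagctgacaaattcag
Atf3: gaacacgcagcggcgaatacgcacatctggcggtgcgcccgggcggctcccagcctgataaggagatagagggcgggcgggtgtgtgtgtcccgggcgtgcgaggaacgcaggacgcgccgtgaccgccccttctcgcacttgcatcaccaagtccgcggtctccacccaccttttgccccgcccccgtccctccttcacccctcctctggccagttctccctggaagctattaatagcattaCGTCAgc
Dusp1: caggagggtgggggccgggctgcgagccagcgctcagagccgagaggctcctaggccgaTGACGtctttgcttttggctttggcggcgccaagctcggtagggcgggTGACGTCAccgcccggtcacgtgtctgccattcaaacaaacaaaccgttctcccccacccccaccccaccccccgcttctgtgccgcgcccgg
The windows lie at chr12:85473640-85473889 on the plus strand for Fos, and on the minus strand at chr8:84978749-84978998 for Junb, chr1:191183334-191183583 for Atf3 and chr17:26508523-26508722 for Dusp1. Each ends at the base before the RefSeq start, except for Dusp1, whose window is cut to the 200 bases farther upstream. The half-site starts 129 and 66 bases upstream of the start in Fos, 106 in Junb and 7 in Atf3, where the last 7 bases before the RefSeq start are annotated as transcribed in GENCODE vM21. In Dusp1 it starts 191 bases upstream, and the full palindrome spans 2 overlapping half-site matches at 143 and 140. Fosb has the half-site at 60 bases and Klf4 at 232, while Jun and Jund have none in this window. The Jund window (chr8:70697489-70697738) ends upstream of the Jund start given below, at 70698949, and does not adjoin it. The Atf3 and Dusp1 windows lie inside the gene spans given below, far from their upstream ends at 191218039 and 26562128. They belong to RefSeq starts within those spans.

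On either strand of the 250 bases upstream of the start, the half-site was found in 6 of the 8 genes and in 17.75% of all 32817 promoters in the table. The full palindrome was found in 1 of the 8, Dusp1, and in 1.548% of promoters. The GC box GGGCGG, bound by Sp1-type factors, was found in 6 of the 8 and in 32.72% of promoters. The AP-1 site, searched as TGACTCA and TGAGTCA, was found in 0 of the 8 and in 4.464% of promoters. The CArG box, the site of serum response factor, was found in 0 of the 8 and in 1.469%. These matches describe letters in a short window and were not tested against the expression values. Egr1, Ier2 and sequence farther upstream were not searched, so sites there would be missed.

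Summed over the 10 genes, the highest levels were in small classes rather than in the classes that held most cells. Mast-like cells, tissue granulocytes that release histamine, held 35496, 34937 and 23489 CPM in 35, 24 and 14 cells. In these mast-like cells 12 neutrophil markers summed to 2839, 2397 and 3115 CPM. The 18 macrophage/monocyte markers summed to 1978, 309 and 2785 CPM there. The part of both marker sets in the mast-like levels given here and below was not tested. ILC2-like cells, innate lymphoid cells that make type 2 cytokines, held 28452, 22254 and 21462 CPM in 33, 49 and 63 cells. The 18 macrophage/monocyte markers summed to 6050, 4606 and 10570 CPM in these ILC2-like cells. Their part in the ILC2-like levels given here and below was not tested. Fibroblast-like cells, which should not carry CD45, held 19181, 18474 and 19327 CPM in 30, 94 and 179 cells. Endothelial-like cells varied most between libraries, at 19791, 6295 and 12606 CPM in 11, 24 and 33 cells. Among the 5 largest classes, macrophage/monocyte-like cells came first at 17363, 15916 and 16285 CPM. The sums in neutrophil-like cells were 12958, 9615 and 13251 CPM, and those in cDC-like cells 11827, 10141 and 10781 CPM. T-like cells held 9539, 5644 and 6806 CPM, B-like cells 8733, 6071 and 8438 CPM, and NK-like cells 5131, 3971 and 5523 CPM. In the 5 largest classes the lowest of the 3 sums was always in the HHcy-labelled library, while the highest was in the control in all but neutrophil-like cells. Over all called barcodes the 10 genes made up 1.31%, 1.06% and 1.41% of UMIs.

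**Figure D1:**
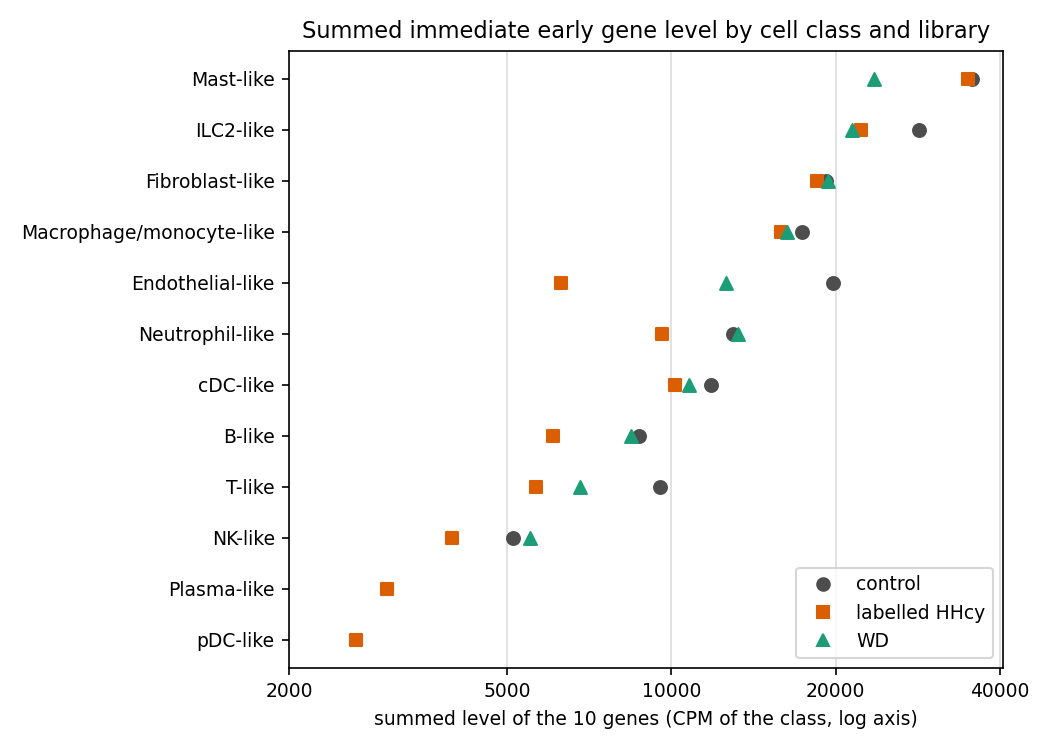
Summed level of the 10 genes (CPM of the class, log axis) in each cell class with at least 10 cells per library plotted, 1 point per library. Mast-like and ILC2-like cells lie at the top, from 21462 to 35496 CPM, and NK-like cells at 3971 to 5523 CPM.

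Small classes also differed in which genes made up the sum. In mast-like cells Jun stood at 7773, 9205 and 5299 CPM, Fos at 6460, 6433 and 3899 CPM and Egr1 at 4983, 4954 and 2572 CPM. Atf3, by contrast, was at 306, 56.2 and 476 CPM in mast-like cells, below its level in macrophage/monocyte-like cells in all 3 libraries. In ILC2-like cells Junb was the leading member at 7254, 5751 and 5866 CPM, above its level in every other class with at least 20 cells in all 3 libraries. Fosb was at 4120, 4091 and 2876 CPM in ILC2-like cells. The WD mast-like values rest on 14 cells.

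The Fos family members Fos and Fosb differed in their order over the larger classes. Fos, the founding AP-1 subunit (chr12:85473890-85477273 in mm10), stood at 2428, 2113 and 2199 CPM in macrophage/monocyte-like cells and at 1885, 1662 and 1364 CPM in cDC-like cells. It was at 1411, 775 and 1245 CPM in neutrophil-like, 755, 466 and 705 CPM in B-like, and 925, 409 and 536 CPM in T-like cells. The first 3 classes kept this order in every library with no overlap of neighbouring intervals, and B-like and T-like cells exchanged the last places between control and the other libraries. Fosb (chr7:19302696-19310051), a second Fos protein with the same zipper, was highest in cDC-like cells in the control and in macrophage/monocyte-like cells in the other libraries, at 1119, 840 and 911 CPM and 1054, 1017 and 1029 CPM in these classes. Its lowest level among the 5 classes was in neutrophil-like cells in all 3 libraries, at 543, 277 and 462 CPM.

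Jun family members differed in how far their classes lay apart. Jun (chr4:95049034-95052222), the main partner of Fos, stood at 1906, 1809 and 1984 CPM in macrophage/monocyte-like cells and at 437, 336 and 492 CPM in B-like cells, the highest and lowest of the 5 classes in each library. Junb (chr8:84974484-84978718), which can restrain Jun, varied only 1.31, 1.49 and 1.48-fold between its highest and lowest class. It was at 3183, 2896 and 2940 CPM in macrophage/monocyte-like, 3046, 2669 and 3478 CPM in neutrophil-like and 2423, 1942 and 2348 CPM in B-like cells. Jund (chr8:70698949-70700616), known as the most constantly expressed Jun gene, was the one member highest in B-like cells in all 3 libraries, at 2270, 1758 and 2174 CPM. In the HHcy-labelled library its interval in B-like cells overlapped that of macrophage/monocyte-like cells, at 1738 CPM.

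Atf3 (chr1:191170296-191218039), a stress-responsive member of the ATF/CREB family, was highest in macrophage/monocyte-like cells at 1467, 1148 and 1524 CPM. T-like cells had its lowest level in each library, at 226, 86.6 and 113 CPM, so that highest and lowest class differed 6.48, 13.3 and 13.5-fold. B-like cells held Atf3 at 784, 271 and 711 CPM, which was above neutrophil-like cells (565, 308 and 530 CPM) in the control and WD libraries and below them in the HHcy-labelled library.

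The zinc finger factors Egr1 and Klf4 were also highest in macrophage/monocyte-like cells. Egr1, a growth- and stress-responsive factor, stood there at 1480, 1552 and 1525 CPM, against 1111, 620 and 974 CPM in neutrophil-like and 193, 158 and 262 CPM in B-like cells. Klf4 (chr4:55527143-55532466), which takes part in monocyte differentiation, stood at 723, 599 and 582 CPM in macrophage/monocyte-like cells and at 219, 99.7 and 175 CPM in neutrophil-like cells. Macrophage/monocyte-like cells were thus the highest of the 5 classes in all 3 libraries for 5 genes, namely Fos, Jun, Atf3, Egr1 and Klf4.

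The remaining genes encode no AP-1 subunit. Ier2 (chr8:84661331-84662852), a short-lived nuclear protein, spanned only 1.95 to 2.23-fold between classes and was highest in neutrophil-like cells in the control and WD libraries, at 959 and 890 CPM. Dusp1 (chr17:26505590-26562128) encodes a phosphatase that switches off MAP kinases, and is not itself a transcription factor. It was high in macrophage/monocyte-like cells (2662, 2254 and 2210 CPM) and neutrophil-like cells (2611, 2388 and 3282 CPM) and lowest in B-like cells (239, 156 and 233 CPM). Highest and lowest class differed 11.1, 15.3 and 14.1-fold for Dusp1, with overlapping intervals for the top 2 classes in the control only.

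**Figure D2:**
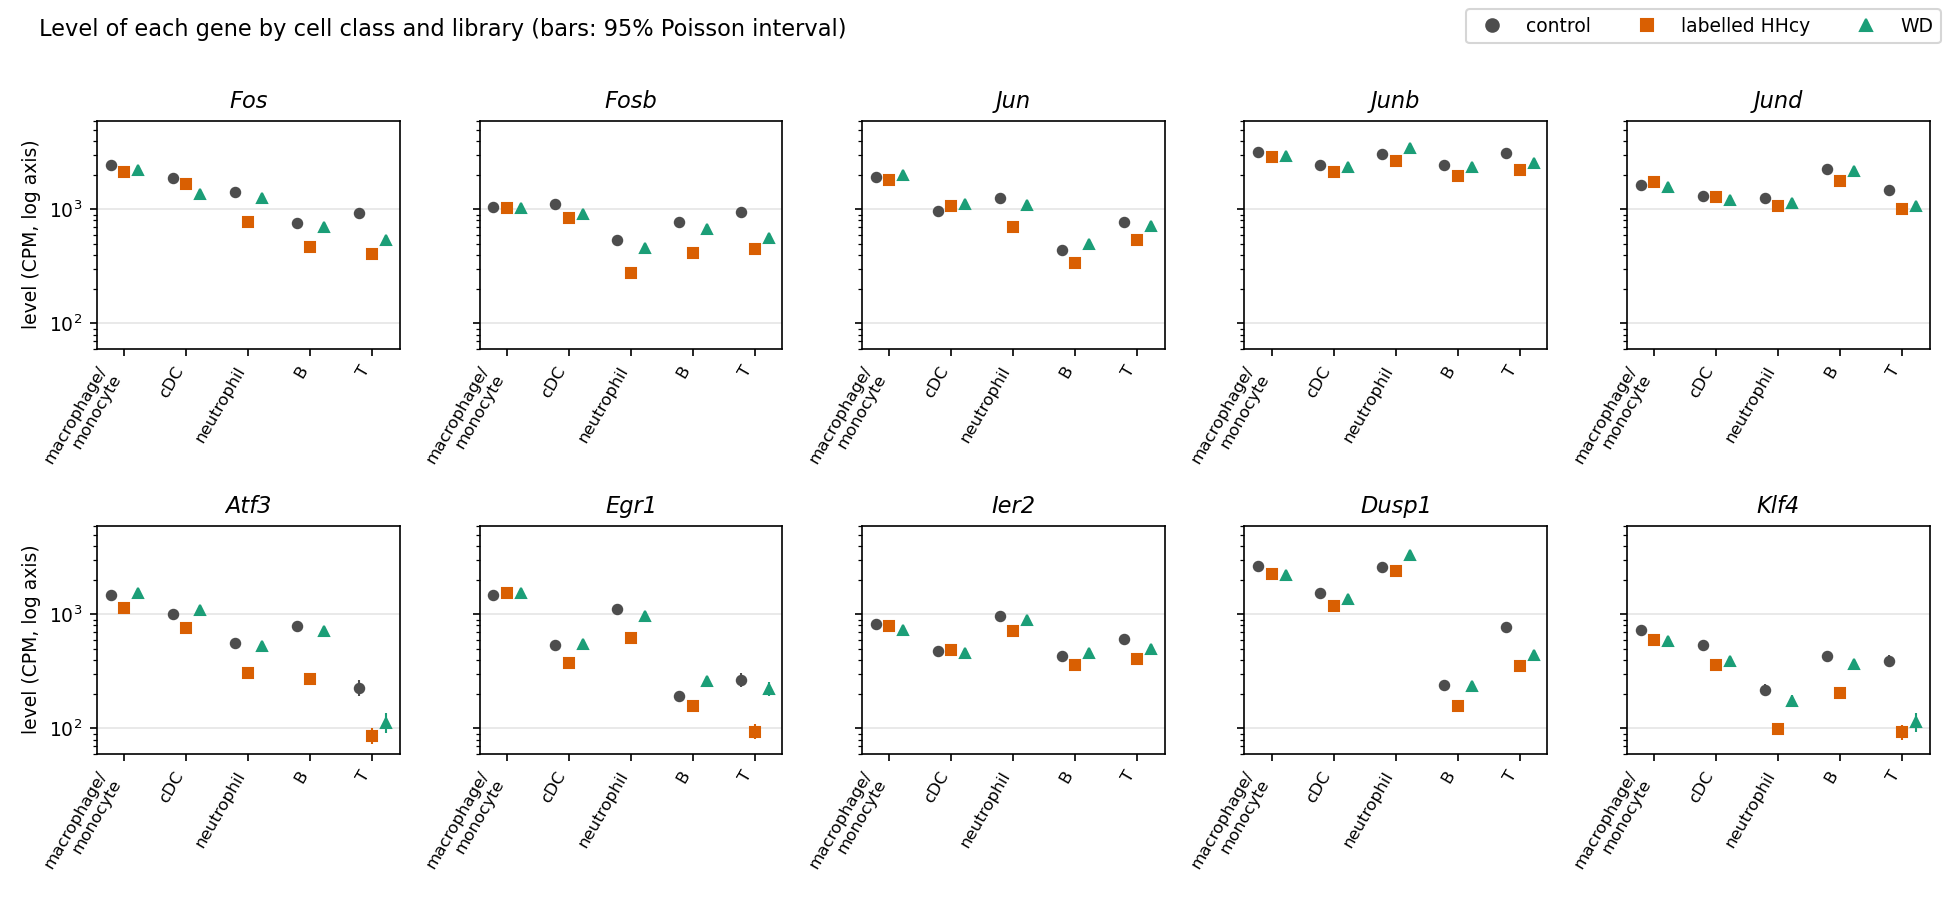
Level of each gene (CPM, log axis) in the 5 largest classes, 1 point per library, with bars for the 95% Poisson interval. Macrophage/monocyte-like cells lead for Fos, Jun, Atf3, Egr1 and Klf4, Junb varies least between classes (at most 1.49-fold), and Jund leads in B-like cells.

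Half-widths of the Poisson intervals were at most 2.25% of the level in macrophage/monocyte-like, 4.13% in B-like, 5.07% in cDC-like, 12.4% in neutrophil-like and 19.8% in T-like cells. Of the 10 genes, 4 overlap an exon of another gene on the opposite strand in the GENCODE vM21 annotation: Jun with Junos, Junb with Prdx2, Jund with Gm11175 and Dusp1 with Ergic1. Whether the counting used strand is not given in the sources used here, and without strand the reads of such a pair cannot be told apart. No class is known to lack these genes, so a level set by free RNA could not be read off directly. Across classes and sub-clusters of at least 20 cells, the lowest levels in the control library ranged from 30.3 CPM for Klf4 to 776 CPM for Junb. Those lowest levels limit what free RNA could add only in the groups they come from, because its share may differ between classes. Free RNA was not estimated.

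Within B-like cells Atf3 separated the subsets far more than any other member. B1-like cells, an innate-like B subset that makes natural antibody, held Atf3 at 1114, 760 and 1170 CPM in 1141, 731 and 495 cells. Naive follicular B-like cells, the recirculating subset, held it at 75.5, 41.0 and 82.9 CPM in 690, 2544 and 478 cells. B1-like cells were thus 14.8, 18.5 and 14.1-fold higher. The other 9 genes differed between these subsets by 0.710 to 2.17-fold. Fosb was 1.39, 2.17 and 1.23-fold and Klf4 1.55, 1.99 and 1.54-fold higher in B1-like cells. Median UMIs per cell were 5219, 5948 and 5027 in the largest naive follicular sub-cluster and 11400, 12531 and 11404 in the largest B1-like sub-cluster.

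Egr1 marked a different B-like sub-cluster. Sub-cluster 4, led by Sox4 and Vpreb3 and left unnamed, held Egr1 at 942, 1032 and 1260 CPM in 275, 191 and 225 cells. The naive follicular B-like sub-clusters 0 and 1 and the B1-like sub-clusters 2 and 3 held Egr1 at no more than 204 CPM. The same sub-cluster 4 held Atf3 at no more than 105 CPM, so the cells high in Egr1 and those high in Atf3 were different sub-clusters. Of the B1-like sub-clusters, 2 and 3 held Atf3 at 771 to 1395 CPM, while the small sub-cluster 6, led by class-switched immunoglobulin genes, held it at 83.0, 103 and 53.5 CPM.

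Resident-like macrophages, led by Lyve1, Cd163 and Folr2 (439, 336 and 546 cells), had the highest sum among the macrophage/monocyte-like subsets. Their sum was 31928, 28846 and 27052 CPM, against 8909 to 14750 CPM in foamy macrophage-like, classical monocyte-like, non-classical monocyte-like and cycling cells. Egr1 showed the widest gap: 3645, 3335 and 3133 CPM in resident-like macrophages against 437, 501 and 534 CPM in classical monocyte-like cells, or 8.35, 6.66 and 5.86-fold. Jun was at 4630, 4470 and 4208 CPM in resident-like macrophages and 4.11, 3.95 and 3.35-fold lower in foamy macrophage-like cells. Ier2 went the other way, with 933, 970 and 871 CPM in resident-like macrophages and 1132, 1165 and 1285 CPM in non-classical monocyte-like cells. The foamy macrophage-like cells were named by scores of markers of lipid-loaded plaque macrophages, and lipid was not measured. Their largest sub-cluster (225, 116 and 762 cells) was led by Cd72, Pmepa1 and Nes. Gpnmb led only a smaller one of 110, 37 and 267 cells. Resident-like macrophages also had 12 heat shock genes at a summed 7769, 6776 and 7250 CPM and a median mitochondrial share of 5.07%, 4.97% and 4.69%. The whole class had 5599, 5376 and 5866 CPM of heat shock genes and 3.24%, 3.50% and 3.54% mitochondrial UMIs. The part of these 2 measures in the high levels was not tested.

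**Figure D3:**
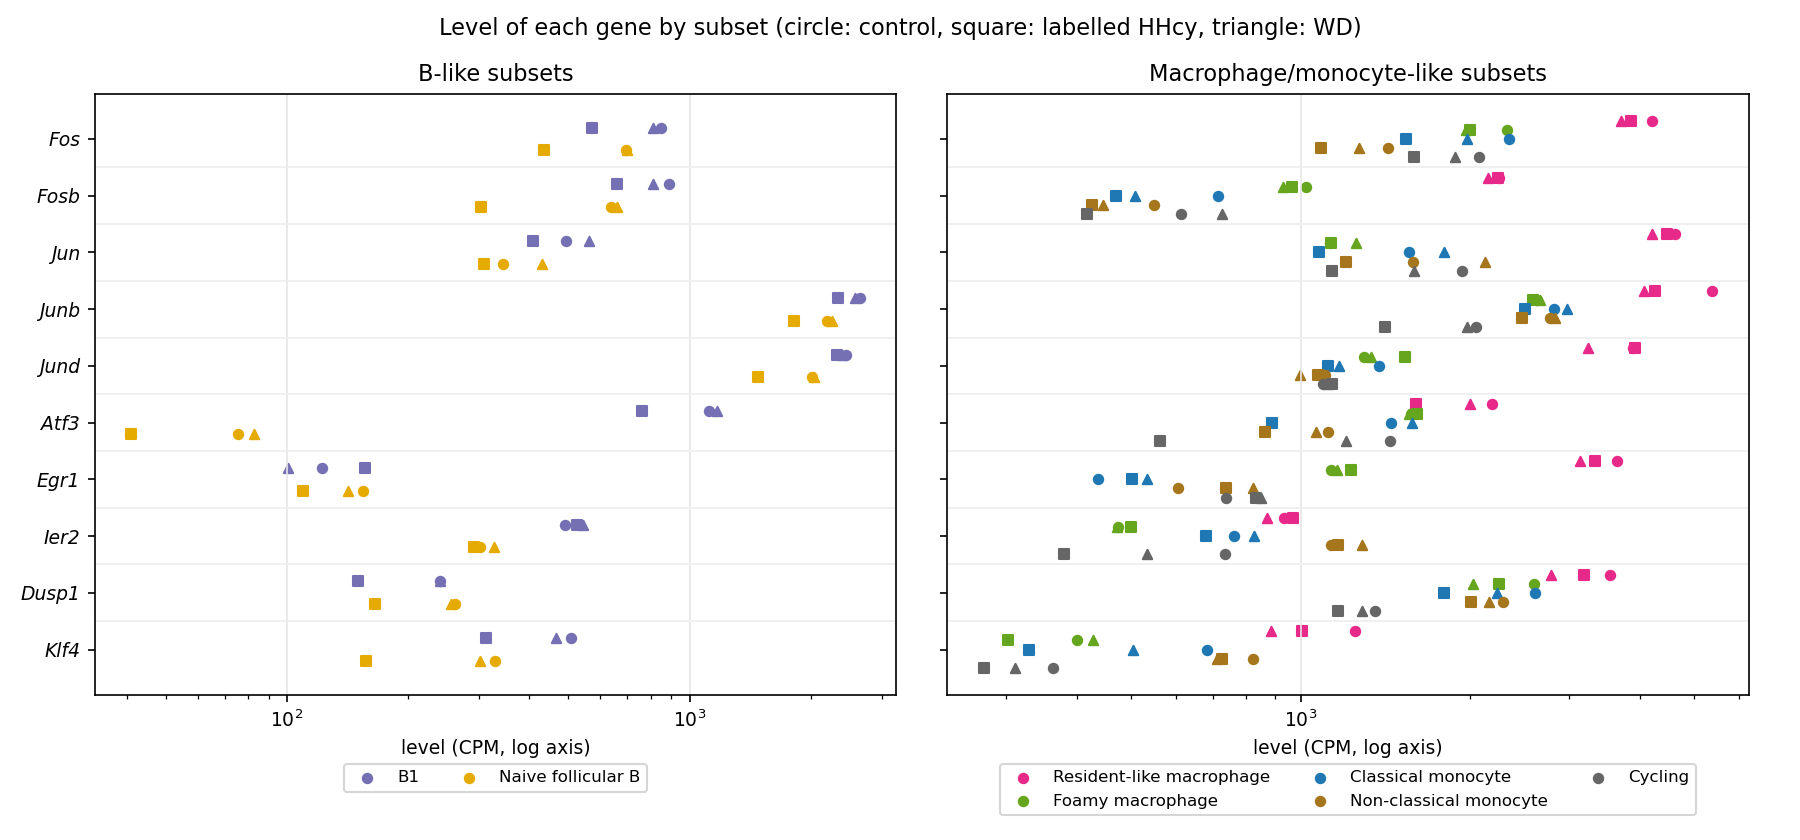
Level of each gene (CPM, log axis) in the B-like subsets (left) and the macrophage/monocyte-like subsets (right), with marker shape for the library. Atf3 separates B1-like from naive follicular B-like cells by 14.1 to 18.5-fold, and resident-like macrophages lie to the right of the other subsets for most genes but not for Ier2.

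Other macrophage/monocyte-like sub-clusters carried single members at high levels. Sub-cluster 6, led by Prg4 and Alox15 and left unnamed, held Egr1 at 4241, 3407 and 4004 CPM, above resident-like macrophages in all 3 libraries. Sub-cluster 9, a foamy macrophage-like sub-cluster led by Mmp13 and Mmp12, held Atf3 at 2196, 2195 and 2615 CPM. Those are the highest Atf3 levels of any class or sub-cluster with at least 20 cells in each library, and the control value lies next to that of resident-like macrophages at 2189 CPM.

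Neutrophil-like sub-clusters were split by Dusp1 and Junb. Sub-cluster 0, led by Csf1 and Il1rn (89, 184 and 180 cells), held Dusp1 at 4719, 4823 and 4963 CPM and Junb at 5003, 4431 and 4654 CPM. Sub-cluster 1, led by the granule genes Ltf, Ngp and Camp of immature neutrophils (58, 71 and 39 cells), held Dusp1 at 753, 457 and 720 CPM and Junb at 1528, 1238 and 1496 CPM. Jun went the opposite way, with 476, 481 and 670 CPM in sub-cluster 0 and 1540, 799 and 1036 CPM in sub-cluster 1. The level of each of these 3 genes in the whole class therefore depended on the mix of sub-clusters.

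**Figure D4:**
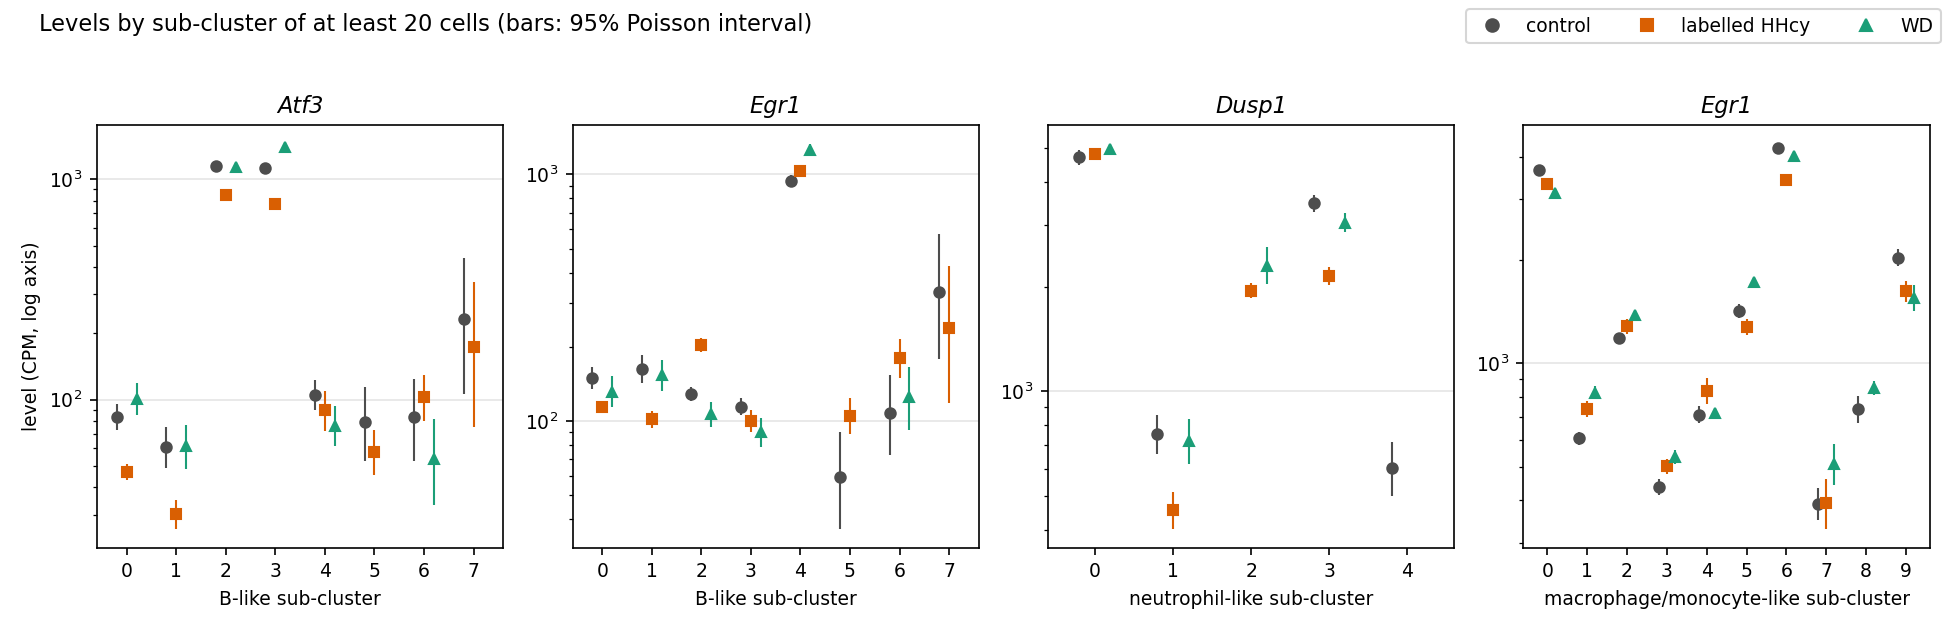
Level (CPM, log axis) of Atf3 and Egr1 in B-like, Dusp1 in neutrophil-like and Egr1 in macrophage/monocyte-like sub-clusters of at least 20 cells, 1 point per library, with bars for the 95% Poisson interval. Atf3 is high in B-like sub-clusters 2 and 3 (771 to 1395 CPM) and Egr1 in sub-cluster 4 (942 to 1260 CPM), while Dusp1 is highest in neutrophil-like sub-cluster 0.

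In cDC-like cells the sub-cluster led by Fscn1 and Ccr7, genes of migratory dendritic cells, had the lowest Fos at 436, 602 and 646 CPM. Egr1 was also lowest there, at 131, 124 and 209 CPM. The Xcr1- and Clec9a-led sub-cluster, with genes of cross-presenting dendritic cells, held Fos at 2336, 2557 and 2009 CPM. Among T-like sub-clusters Junb was highest in the Foxp3-led cells (4981, 3871 and 3791 CPM) and the Il17a-led cells (5345, 3895 and 4638 CPM). The Il17a-led cells numbered only 16, 21 and 22.

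The HHcy-labelled and WD libraries were each compared with control as log2 ratios of CPM within each class. Apoe in the HHcy-labelled library, at 374 CPM against 16.3 CPM in the control, goes against its genotype label. Treatment and a difference in genotype therefore cannot be told apart in that comparison. A gene was called past the fold when it differed by more than 1.5-fold and had at least 20 UMIs over both libraries. Both comparisons share the control library. Every member that passed was lower than control, and none was higher, in any of the 5 classes. In the HHcy-labelled library the members past the fold numbered 5 in B-like, 6 in T-like, 0 in macrophage/monocyte-like, 1 in cDC-like and 6 in neutrophil-like cells. For all genes with enough UMIs, the share past the fold in either direction was 15.5%, 23.7%, 10.4%, 14.0% and 35.7% in those classes. The share past the fold in the lower direction alone was 9.30%, 14.3%, 5.21%, 6.44% and 30.1%. For WD, 5 members passed in T-like cells and 0 in each other class, where 20.9% of all genes passed in T-like, 8.70% in B-like, 11.3% in macrophage/monocyte-like, 14.8% in cDC-like and 22.5% in neutrophil-like cells. In the lower direction alone the WD shares were 9.80%, 3.57%, 4.97%, 7.49% and 15.7% in the same order. Highly expressed genes pass less often. Among genes with at least 100 CPM on average, a background chosen after seeing the data, the lower share for the HHcy-labelled library was 4.03% in B-like, 7.07% in T-like, 0.803% in macrophage/monocyte-like, 2.36% in cDC-like and 10.7% in neutrophil-like cells. The WD values in the same order of classes were 0.245%, 3.51%, 2.12%, 1.68% and 3.78%.

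In B-like cells Atf3 went from 784 CPM in the control to 271 CPM in the HHcy-labelled library, a log2 ratio of -1.53 (interval -1.57 to -1.49), and to 711 CPM in the WD library. Klf4 (432, 204 and 370 CPM) had a ratio of -1.08 (-1.13 to -1.03) in the HHcy-labelled library. The other genes past the fold there were Fosb at -0.88 (-0.92 to -0.85), Fos at -0.70 (-0.73 to -0.66) and Dusp1 at -0.62 (-0.68 to -0.56). The library labelled HHcy was the lowest of the 3 for each of these 5 genes. For WD the ratios ran from -0.22 for Klf4 to 0.44 for Egr1, all within the fold. The members' median log2 ratio was -0.50 in the HHcy-labelled library and -0.05 in the WD library, beside -0.02 and 0.03 for all genes.

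The make-up of the B-like class differed between libraries. B1-like cells were 51.8%, 20.1% and 40.1% of B-like cells, and naive follicular B-like cells were 31.4%, 69.9% and 38.7%. With every library set to the same sub-cluster mix, the count in the HHcy-labelled library went from 5 to 2 (Dusp1 and Klf4), and Atf3 from -1.53 to -0.52. With at most 5% mitochondrial UMIs per cell the count was 3. The sum of heat shock genes in B-like cells was 3724, 3591 and 3789 CPM, and the median mitochondrial share 4.84%, 4.87% and 5.01%. The part of these values in the B-like result was not tested.

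Within B1-like cells 2 members passed the fold in the HHcy-labelled library, where 9.12% of all genes did: Klf4 at -0.70 (-0.76 to -0.63) and Dusp1 at -0.68 (-0.77 to -0.59). Egr1 lay on the other side at 0.36 (0.25 to 0.46). Within naive follicular B-like cells 5 members passed, where 14.0% of all genes did. These were Fosb at -1.07 (from 637 to 303 CPM), Klf4 at -1.06 (-1.15 to -0.96), Atf3 at -0.88 (-1.08 to -0.68), Fos at -0.67 (-0.73 to -0.61) and Dusp1 at -0.66 (-0.76 to -0.56). Klf4 and Dusp1 were therefore lower than control past the fold in both named subsets. For WD, 0 members passed in B1-like cells and 0 in naive follicular B-like cells, where 9.48% and 9.99% of all genes did.

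T-like cells had the lowest median member ratio of the 5 classes in both comparisons. Klf4 went from 392 CPM in the control to 92.7 and 114 CPM, with log2 ratios of -2.08 (-2.37 to -1.80) in the HHcy-labelled library and -1.79 (-2.13 to -1.46) in the WD library. Egr1 stood at 268, 93.8 and 224 CPM, with ratios of -1.52 (-1.82 to -1.21) and -0.26 (-0.55 to 0.03). Fos stood at 925, 409 and 536 CPM, with ratios of -1.18 (-1.33 to -1.03) and -0.79 (-0.96 to -0.62). The control was the highest library for all 10 genes and the HHcy-labelled library the lowest. Atf3, Dusp1 and Fosb were past the fold in both libraries, at -1.38, -1.13 and -1.08 in the HHcy-labelled library and -1.01, -0.82 and -0.76 in the WD library. The members' median was -1.11 and -0.61, beside -0.08 and 0.02 for all genes.

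These T-like values rest on 139, 210 and 139 cells, and on few cells for some genes. In the control library 2 cells held 27.0% of all Fosb UMIs and 22.2% of Klf4 UMIs. T-like sub-cluster 0, of 60, 58 and 58 cells, had 2 NK markers and no T marker among its leading genes. Without it 9 members passed in the HHcy-labelled library and 6 in the WD library. The WD count of 5 became 1 with doublets kept and 3 with cells thinned to 1000 UMIs. Heat shock genes in T-like cells summed to 7058, 5546 and 5963 CPM, highest in the control like the members, and median UMIs per cell were 3821, 6073.5 and 4781. The part of either in the T-like result was not tested. Klf4 had a UMI in 26.2%, 9.66% and 11.6% of T-like cells thinned to 1000 UMIs each (9, 3 and 1 shallower cells left out), and in 43.8%, 33.3% and 28.3% of the same cells unthinned.

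In neutrophil-like cells 6 members passed the fold in the HHcy-labelled library. Fosb stood at 543, 277 and 462 CPM, a log2 ratio of -0.97 (-1.12 to -0.82) in the HHcy-labelled library. Jun stood at 1246, 695 and 1084 CPM (-0.84, -0.94 to -0.75) and Egr1 at 1111, 620 and 974 CPM (-0.84, -0.94 to -0.74). Fos, Atf3 and Klf4 were at -0.87, -0.88 and -1.14. The library labelled HHcy was the lowest of the 3 for all 6, and WD stayed within the fold of control for all 10 genes. Junb, Jund and Dusp1 differed less, at -0.19, -0.23 and -0.13.

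The median over all tested genes in neutrophil-like cells was -0.31 in the HHcy-labelled library and -0.10 for WD. Over genes of at least 100 CPM on average it was -0.08 and 0.01. With size factors from the median of ratios, which raise those ratios by 0.31 and 0.10, the count of 6 became 2 (Fosb at -0.66 and Klf4 at -0.83), and Dusp1, Junb and Jund turned to 0.18, 0.12 and 0.08. Neutrophil-like sub-cluster 2, led by Gbp2, Ifit3 and other interferon-induced genes, held 3, 131 and 27 cells, and with the same sub-cluster mix Jun stood at -0.18 and 5 members passed. Sub-cluster 3, led by monocyte genes with 34, 46 and 31 cells, had 2 macrophage/monocyte markers and no neutrophil marker among its leading genes. Without it 4 members passed, with Atf3 at -0.35 and Fosb at -0.53. In the HHcy-labelled library 5 cells held 35.7% of the Klf4 UMIs of the class. Heat shock genes summed to 2169, 1322 and 1788 CPM, in the same order of libraries as Fosb, Jun, Egr1, Fos, Atf3 and Klf4, and their part was not tested.

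In macrophage/monocyte-like cells no member passed the fold in either comparison. Log2 ratios ran from -0.35 for Atf3 to 0.09 for Jund in the HHcy-labelled library and from -0.31 for Klf4 to 0.06 for Jun and Atf3 in the WD library. The members' medians were -0.11 and -0.09, beside -0.04 and -0.01 for all genes. Without sub-cluster 5, which had 2 neutrophil markers among its leading genes (97, 84 and 172 cells), the counts were still 0 and 0. Within the class, members passed in classical monocyte-like and cycling cells. In classical monocyte-like cells (329, 254 and 274 cells) 4 members passed in the HHcy-labelled library, where 16.3% of all genes did. Klf4 stood there at 683, 329 and 503 CPM (-1.05, -1.16 to -0.94), Atf3 at 1445, 889 and 1574 CPM (-0.70, -0.77 to -0.63), Fos at -0.61 (-0.66 to -0.55) and Fosb at -0.60 (-0.70 to -0.51). In resident-like, foamy macrophage-like and non-classical monocyte-like cells 0 members passed in the HHcy-labelled library, where 14.6%, 15.2% and 12.9% of all genes did. In cycling cells 3 passed (Atf3 at -1.36, Ier2 at -0.95 and Jun at -0.76), where 36.9% of all genes did, from 38 and 18 cells. The cycling count does not exceed that share and is no result about the members. For WD, 0 members passed in any of these 5 subsets, where 16.7% of all genes did in classical monocyte-like, 12.9% in resident-like, 12.3% in foamy macrophage-like, 11.8% in non-classical monocyte-like and 23.0% in cycling cells.

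In cDC-like cells Klf4, at 538, 357 and 387 CPM, was the 1 member past the fold in the HHcy-labelled library, with a log2 ratio of -0.59 (-0.68 to -0.51) that only just exceeds it. Without sub-cluster 3, led by C1qa and other macrophage genes (49, 15 and 87 cells), no member passed. In the WD library Klf4 and Fos shared a ratio of -0.47, and Fos stood at 1885, 1662 and 1364 CPM, lowest in the WD library. The members' medians were -0.29 and -0.10, beside 0.05 and 0.00 for all genes.

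**Figure D5:**
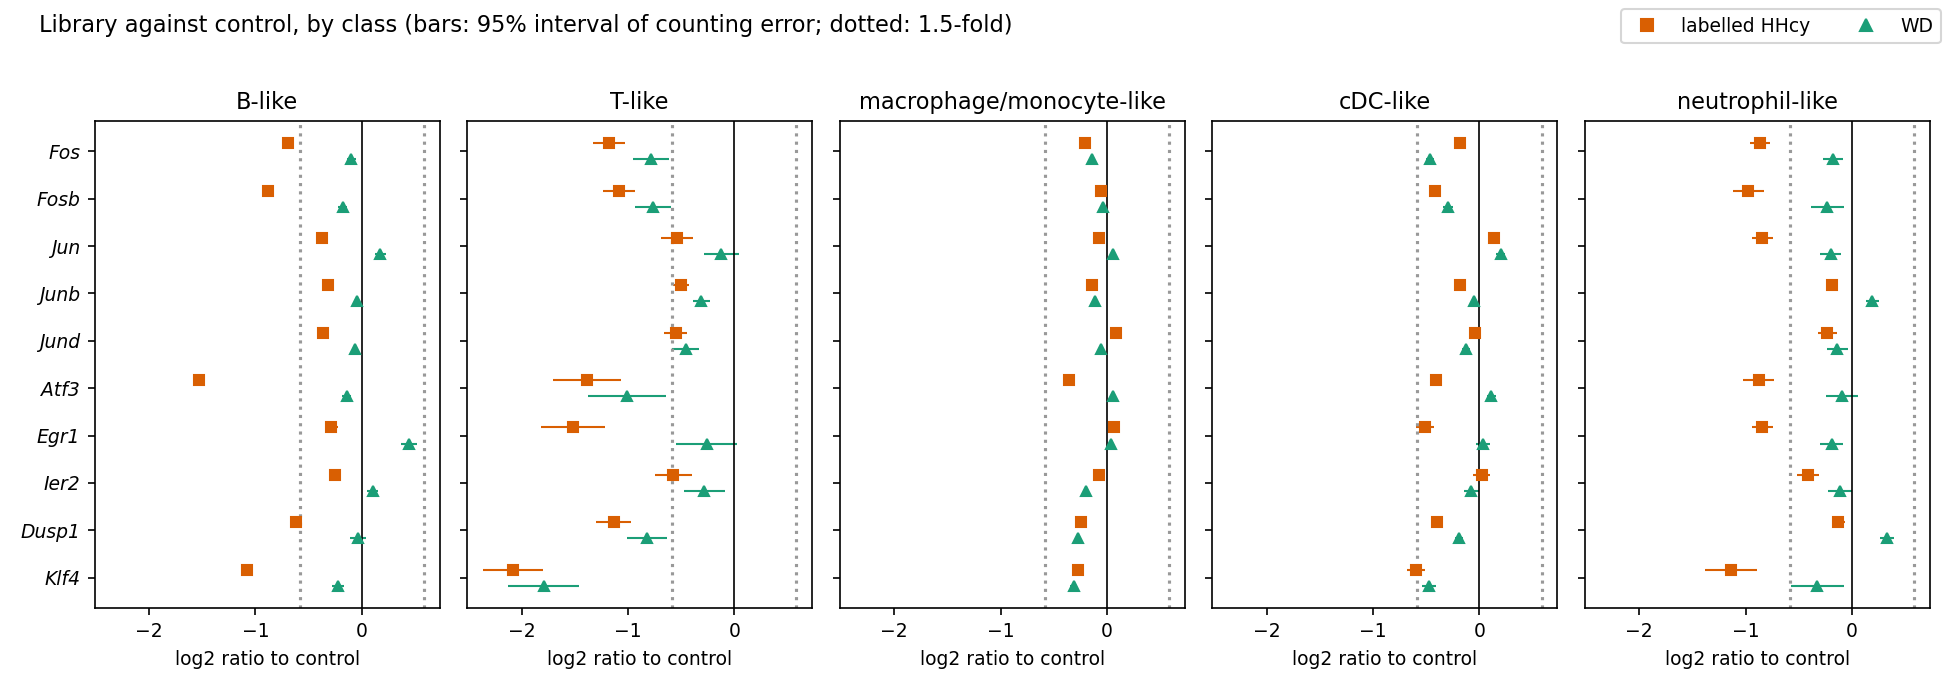
Log2 ratio of each gene to control in 5 classes for the HHcy-labelled library (squares) and the WD library (triangles), with bars for the 95% interval of counting error and dotted lines at 1.5-fold. Points past the left dotted line number 5 in B-like, 6 in T-like, 6 in neutrophil-like and 1 in cDC-like cells for the HHcy-labelled library and 5 in T-like cells for WD, and none lie past the right one.

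Members were also read together in single cells. With every cell thinned to 1000 UMIs, a macrophage/monocyte-like cell had on average 6.45, 6.14 and 6.26 of the 10 genes detected, a B-like cell 4.03, 3.11 and 3.90, and a T-like cell 4.26, 3.18 and 3.64. B-like cells with 5 or more of the genes made up 38.7%, 19.1% and 36.7%, after leaving out 19, 23 and 12 shallower cells. Cells with none were rare, at 1.24%, 2.54% and 1.80% of B-like and 0.202%, 0.642% and 0.550% of macrophage/monocyte-like cells. Unthinned, the median was 8, 7 and 8 genes in B-like and 10 in all libraries in macrophage/monocyte-like cells. Atf3 had a UMI in 32.7%, 11.5% and 26.8% of thinned B-like cells and in 61.7%, 32.7% and 54.8% of them unthinned.

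Over the 45 pairs of genes, all were positively correlated across thinned macrophage/monocyte-like cells in all 3 libraries, with median Spearman rho of 0.23, 0.25 and 0.23. Fos with Fosb stood at 0.41, 0.42 and 0.38 there, and Fos with Jun at 0.42, 0.41 and 0.38. In neutrophil-like cells Junb and Dusp1 were the closest pair, at 0.50, 0.43 and 0.44, while Jun and Dusp1 stood at -0.24, -0.01 and -0.06. In B-like cells Atf3 and Egr1 were near or below 0 (-0.07, 0.01 and -0.09), and the median over pairs was only 0.10, 0.08 and 0.10. These correlations describe cells of 1 library that share depth, handling and sub-cluster, and the weak ones carry no finding.

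A list of 34 other immediate early genes was read beside the members. In T-like cells 19 of the 31 with enough UMIs were lower past the fold in the HHcy-labelled library and 0 higher, with a median of -0.61. Among them were Dusp6, another MAP kinase phosphatase, at -1.66 (-2.41 to -0.92) and Zfp36, which promotes the decay of cytokine mRNAs, at -1.18 (-1.33 to -1.04). For WD 10 of 31 were lower and 1 higher in T-like cells, with a median of -0.36. Of all genes in T-like cells, 14.3% were lower in the HHcy-labelled library, and 9.80% were lower and 11.1% higher for WD. In B-like cells 7 of 33 were lower and 0 higher in the HHcy-labelled library (median -0.39), among them Klf10 at -1.19 and the Fos relative Fosl2 at -1.15. For WD 0 were lower and 3 higher in B-like cells. Of all genes in B-like cells, 9.30% were lower in the HHcy-labelled library, and 3.57% were lower and 5.14% higher for WD. In neutrophil-like cells 7 of 31 were lower and 1 higher in the HHcy-labelled library, with a median of -0.27 against -0.31 for all genes. Of all genes in neutrophil-like cells, 30.1% were lower and 5.62% higher in that library. The orphan nuclear receptor Nr4a2 was at -1.82 there. In macrophage/monocyte-like cells 1 of 33 was lower in the HHcy-labelled library, and 3 of 33 in the WD library, Nr4a2 at -0.95 and Nr4a1 at -0.73 among them. In cDC-like cells 4 of 32 were lower in the HHcy-labelled library, and in the WD library 4 of 33 were lower and 1 higher, Egr3 at -1.15 being the lowest. The lower shares of all genes in the HHcy-labelled library were 5.21% in macrophage/monocyte-like and 6.44% in cDC-like cells. For WD they were 4.97% and 7.49%, and 7.35% were higher in cDC-like cells. In the HHcy-labelled library the counts in neutrophil-like and macrophage/monocyte-like cells lie below these shares and are no result about the list. The counts of lower genes in WD macrophage/monocyte-like cells and in cDC-like cells of both libraries lie above the shares. They rest on only 3 or 4 genes each and were not tested.

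Heat shock genes, which respond to protein-damaging stress, were counted by the same rule. In the HHcy-labelled library 2 of 12 were lower in B-like, 5 of 11 in T-like, 1 of 12 in macrophage/monocyte-like, 3 of 12 in cDC-like and 6 of 11 in neutrophil-like cells, with 0 higher in any, where 9.30%, 14.3%, 5.21%, 6.44% and 30.1% of all genes were lower. The WD counts were 0 of 12, 2 of 11, 0 of 12, 2 of 12 and 1 of 11 lower in the same classes. Of all genes, 3.57%, 9.80%, 4.97%, 7.49% and 15.7% were lower there. In WD macrophage/monocyte-like cells 1 of 12 was higher, where 6.34% of all genes were. Hspa1b, an inducible Hsp70 gene, stood at -1.53, -2.27, -0.91, -1.26 and -2.56 in the 5 classes of the HHcy-labelled library, in the same order. In the WD library Hspa1b was past the fold in T-like (-2.17), cDC-like (-0.97) and neutrophil-like cells (-1.43). Hspa1b and Hspa1a are near-identical copies between which the counting could split reads, so the value of either is uncertain. Hspa1b was past the fold in all 5 classes in the HHcy-labelled library, macrophage/monocyte-like cells included, where no member was.

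Partners and upstream regulators of AP-1, such as Atf4, Srf and MAP kinases, were counted the same way. In the HHcy-labelled library 1 of 17 was lower in B-like, 2 of 15 in T-like, 0 of 17 in macrophage/monocyte-like, 1 of 17 in cDC-like and 5 of 15 in neutrophil-like cells, with 0 higher in any. These counts lie near the 9.30%, 14.3%, 5.21%, 6.44% and 30.1% of all genes that were lower in the same classes, and are no result about the list. Batf3, a leucine zipper partner of Jun proteins, was at -1.63 in B-like cells, and Atf4, a stress-responsive ATF protein, at -1.08 in neutrophil-like cells. Of 14 lymphocyte activation genes in T-like cells, 3 were lower and 2 higher in the HHcy-labelled library, where 14.3% and 9.40% of all genes were. Pdcd1 and Tnfrsf4, receptors of activated T cells, were at 1.19 (0.44 to 2.03) and 1.26 (0.76 to 1.80), while Irf4 and Nfkbid were at -1.25 and -1.30. The WD library had Pdcd1 and Tnfrsf4 at 1.45 and 0.93 in T-like cells, with 4 of 14 lower and 2 higher. Of all genes there, 9.80% were lower and 11.1% higher. In both libraries the count of higher genes lies near the share of all genes and is no result about the list. Myeloid activation genes in cDC-like cells gave 7 of 14 lower and 1 higher in the HHcy-labelled library, where 6.44% and 7.60% of all genes were. They gave 0 lower and 4 higher in the WD library, where 7.49% and 7.35% of all genes were. Il10, an anti-inflammatory cytokine, stood at 2.56 (1.98 to 3.19) and the neutrophil chemokine Cxcl1 at 1.83 (1.63 to 2.03) in WD cDC-like cells. In cDC-like cells the 18 macrophage/monocyte markers summed to 3177, 2905 and 5086 CPM and the 12 neutrophil markers to 143, 187 and 444 CPM, highest for WD, and the C1qa-led sub-cluster held 49, 15 and 87 cells. Their part in these values was not tested.

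The genes whose pattern over the 15 class-by-library sums was most like the mean of the 10 were looked for among 5687 genes with at least 20 CPM on average. They were Tcf7l2 (Pearson r 0.96), Zfand5 (0.95), Gnaq (0.95), B4galt6 (0.95) and Ptpro (0.94), none of them in the lists above. Of the members themselves, Fos (0.98), Egr1 (0.93) and Jun (0.90) lay closest to the mean and Jund (0.17) farthest. Each member is part of that mean, so these values cannot be compared with those of the other genes. The 15 sums share 3 libraries and 5 classes, and the correlations are a description only.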

How the data were processed

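Live CD45+ cells of whole aortas were profiled with droplet 3′ v3 chemistry, per the labels' protocols. The deposited files hold whole-number UMI counts per gene and called barcode, not normalized. The file headers name Cell Ranger 4.0.0, while the submitters' processing notes name Cell Ranger 2.2.0 and mm10.

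Barcodes with at least 200 detected genes and at most 10% mitochondrial UMIs were kept (6038, 8155 and 6710 of 7512, 9753 and 8557). Doublets were marked where a cell passed UMI limits for markers of 2 or more of 5 lineages (9.09%, 19.1% and 17.4% of those kept) and left out. No other doublet caller was run. Cells of all 3 libraries entered 1 clustering with no batch correction (2000 variable genes, 30 principal components, 20 neighbours, Leiden resolution 1.0, then 0.5 within classes). Mitochondrial, ribosomal, haemoglobin, immunoglobulin, T cell receptor and sex-linked genes were kept out of clustering, as were the 10 genes and the other gene lists. Names come from fixed markers. The limits for naming were set after the data were examined. The members, gene lists, doublet limits and rules were chosen with earlier results of these data known.

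UMIs were summed per class and library. Levels carry exact Poisson intervals and ratios exact conditional binomial intervals (95%). These cover counting error only, and depth per class limits them. Shares and correlations used cells thinned to 1000 UMIs. From each other list, up to 4 genes past the fold with the largest ratios and at least 50 UMIs were named. Ratios were recomputed under 13 alternatives, and the ratio code was tested on simulated data. Sequences come from RefSeq and exon overlaps from GENCODE. Tools were Python 3.11.15, numpy 2.4.6, scipy 1.17.1, pandas 2.3.3, scikit-learn 1.9.0, python-igraph 0.11.9, leidenalg 0.10.2 and matplotlib 3.10.9.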

Additional observations from a re-analysis of the deposited data

How the results depend on the processing

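Of the 23 log2 ratios past the fold, all 23 kept their sign under each of the 13 alternatives and 9 stayed past the fold in every one. Of the other 77 ratios, 10 passed the fold under some alternative. Of all 100 ratios, 32 changed sign under at least one. The counts of members take both directions together, so they could change in size but not reverse. In B-like cells of the HHcy-labelled library the count went from 5 to 3 with at most 5% mitochondrial UMIs and to 2 with the same sub-cluster mix. In WD T-like cells it went from 5 to 3 with cells thinned to 1000 UMIs and to 1 with doublets kept. In cDC-like cells of the HHcy-labelled library it went from 1 to 0 under Leiden resolution 2, at least 500 detected genes, at most 20% mitochondrial UMIs, doublets kept, the same sub-cluster mix, without sub-clusters led by another class and without the 1% of cells richest in the gene. In WD cDC-like cells it went from 0 to 1 with thinned cells. In WD neutrophil-like cells it went from 0 to 1 with at most 20% or at most 5% mitochondrial UMIs, with thinned cells, without sub-clusters led by another class, and with doublets kept (1 higher). In neutrophil-like cells of the HHcy-labelled library it went from 6 to 2 with median-of-ratios size factors. The cause was not tested beyond what each alternative changes. Stricter doublet limits, leaving out sub-clusters led by another class and the background of genes with at least 100 CPM were chosen after seeing the data. No paired analysis was possible because each group has 1 library, and for the same reason no library could be left out of a group.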
